A study of Mus musculus with 8 samples.

Results

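The C/EBP factors and acute-phase genes considered here are the transcription factor genes Cebpa, Cebpb and Cebpd and the genes Serpina3n, Serpina3i, Clu, Lcn2 and Steap4. These 8 genes were found by their Ensembl identifiers among the 46078 genes of the deposited count table. They were listed for this work after results of the same libraries were known, in particular the difference between conditions in experiment 1, so their values in the condition comparisons are given as descriptions without a test. RNA came from Lgr5-traced cells that had been sorted from mouse epidermis after skin injury, a treatment all libraries share. The 2 groups are Treg-depleted (n = 4 libraries, regulatory T cells absent) and Treg-sufficient (n = 4, regulatory T cells present). All mice carried the strain label Lg5-egfp-ires-creert2/R26-tdTomato: Lgr5 drives an inducible Cre recombinase, and cells in which it acted, with their progeny, keep the tdTomato mark. Experiment 1 gave replicates 1 and 2 of each condition, and experiment 2 gave replicates 3 and 4. The sources used here do not state the method or timing of depletion, the kind of injury, the interval after it or the age of the mice. Nothing in the labels assigns libraries to separate animals, so p-values measure the spread between these libraries.

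C/EBP proteins are leucine zipper transcription factors that bind DNA as dimers. C/EBPα and C/EBPβ act in the differentiation of epidermal keratinocytes, and C/EBPδ is typically low in resting cells and induced by inflammatory cytokines and glucocorticoids. The acute-phase response is the release of protective plasma and tissue proteins after injury or infection. It is driven by the cytokines IL-6 and IL-1 through STAT3, NF-κB and C/EBP factors, and epithelia make part of these proteins themselves.

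Library totals over genes ran from 22330729 to 29975347 counts, and levels are given as CPM, counts scaled to the TMM-adjusted library total. Keratinocyte and follicle stem cell markers were present in every library, with Lgr5 at 6450 to 14375 counts and Krt5 at 180809 to 318099. Immune cell genes were near the limit of detection: no library held more than 11 counts of the leukocyte gene Ptprc or 22 of Foxp3, which defines regulatory T cells. The libraries differed in sex-linked RNA. On unadjusted totals, Xist reached 72 CPM in Treg-depleted replicate 2 and 2713 CPM in Treg-sufficient replicate 2, against 0.967 to 2.26 CPM in the other 6, and summed Y-linked RNA was 2.84 CPM in Treg-sufficient replicate 2 against 314 to 417 CPM elsewhere. Treg-depleted replicate 2 also held counts for the fewest genes (18605 of a range up to 23062). Both libraries with raised Xist are in experiment 1.

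Of the C/EBP factors, Cebpd was about an order of magnitude higher in the Treg-depleted libraries of experiment 1, Cebpa was lower there, and Cebpb overlapped between the conditions. In these bulk samples, fewer cells of a type and less RNA per cell cannot be told apart. Cebpd (ENSMUSG00000071637, GRCm38 chromosome 16, 15887286 to 15891031, plus strand, protein coding) stood at 61.5 and 71.6 CPM in Treg-depleted replicates 1 and 2, against 8.21 and 3.65 CPM in Treg-sufficient replicates 1 and 2. Its fitted log2 fold change was 3.49 (SE 0.36), or 11.2-fold, the 8th highest of the 16495 genes tested. In experiment 2 it stood at 5.35 and 4.33 CPM in Treg-depleted and at 3.62 and 3.61 CPM in the Treg-sufficient pair (log2 fold change 0.42, SE 0.35). The high level was thus seen in 2 of 4 Treg-depleted libraries, and the other pair lay within the range of the Treg-sufficient libraries. Without Treg-sufficient replicate 1 the value in experiment 1 was 4.18, and without both libraries with raised Xist it was 2.86. The gene overlaps Spidr on the opposite strand, which had 1570, 1039, 1053 and 1226 counts in Treg-depleted and 1023, 1102, 1150 and 1305 counts in Treg-sufficient replicates 1 to 4. The highest Spidr count fell in Treg-depleted replicate 1. These counts are not scaled to library totals, which were lowest in Treg-depleted replicate 2 (22330729) and highest in Treg-sufficient replicate 4 (29975347). The unscaled counts thus do not place Treg-depleted replicate 2 among the others. The part of Spidr reads in the Cebpd value was not tested.

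Cebpa, whose product restrains proliferation and promotes differentiation in several epithelia (ENSMUSG00000034957, chromosome 7, 35119293 to 35121928, plus strand), stood at 43.2 and 54.2 CPM in Treg-depleted libraries of experiment 1 against 73.5 and 82.1 CPM in Treg-sufficient ones. In experiment 2 it stood at 87.1 and 97.2 CPM in Treg-depleted against 103 and 110 CPM in Treg-sufficient libraries. In both experiments the Treg-depleted pair lay below the Treg-sufficient pair, with log2 fold changes of -0.68 (SE 0.15) in experiment 1 and -0.21 (SE 0.15) in experiment 2. Cebpb, which responds to the same cytokines as Cebpd (ENSMUSG00000056501, chromosome 2, 167688915 to 167690418, plus strand), stood at 13.2 and 20.1 CPM in Treg-depleted and at 16.0 and 14.3 CPM in Treg-sufficient libraries of experiment 1. The groups overlapped there (log2 fold change 0.13, SE 0.25), and the sign turned without Treg-depleted replicate 2 (-0.23) and without both libraries with raised Xist (-0.32). In experiment 2 Cebpb stood at 10.7 and 13.6 CPM in Treg-depleted against 14.5 and 14.6 CPM in the Treg-sufficient pair (log2 fold change -0.26, SE 0.25). Cebpb overlaps Tmem189 on the opposite strand, which had 520 to 695 counts in Treg-depleted and 694 to 869 counts in Treg-sufficient libraries. These counts are not scaled to library totals. Treg-depleted replicate 2 had 610 of 22330729 counts, the lowest total, and Treg-sufficient replicate 4 had 859 of 29975347, the highest.

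Divided by exon length, so that the 3 factors can be compared, Cebpa made up most C/EBP transcripts of the 3 genes in 6 of 8 libraries. In Treg-depleted libraries of experiment 1 Cebpd held 39.5 and 36.0% of the summed CPM per kilobase (kb), Cebpa 39.4 and 38.8% and Cebpb 21.1 and 25.2%. In the Treg-sufficient libraries of that experiment Cebpd held 5.38 and 2.34%, Cebpa 68.5 and 74.8% and Cebpb 26.2 and 22.8%. In experiment 2 Cebpd held 3.43 and 2.45% in Treg-depleted and 1.95 and 1.84% in Treg-sufficient libraries. The sum itself was 41.6 and 53.0 CPM per kb in the Treg-depleted against 40.7 and 41.6 CPM per kb in the Treg-sufficient libraries of experiment 1, so the makeup differed more than the total. The other C/EBP family genes tested lay close to 0: log2 fold changes in experiment 1 were 0.16 for Cebpg, 0.19 for Cebpz and 0.14 for Ddit3, and Cebpe, a factor of myeloid cells, had at most 1 count in any library.

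**Figure D1:**
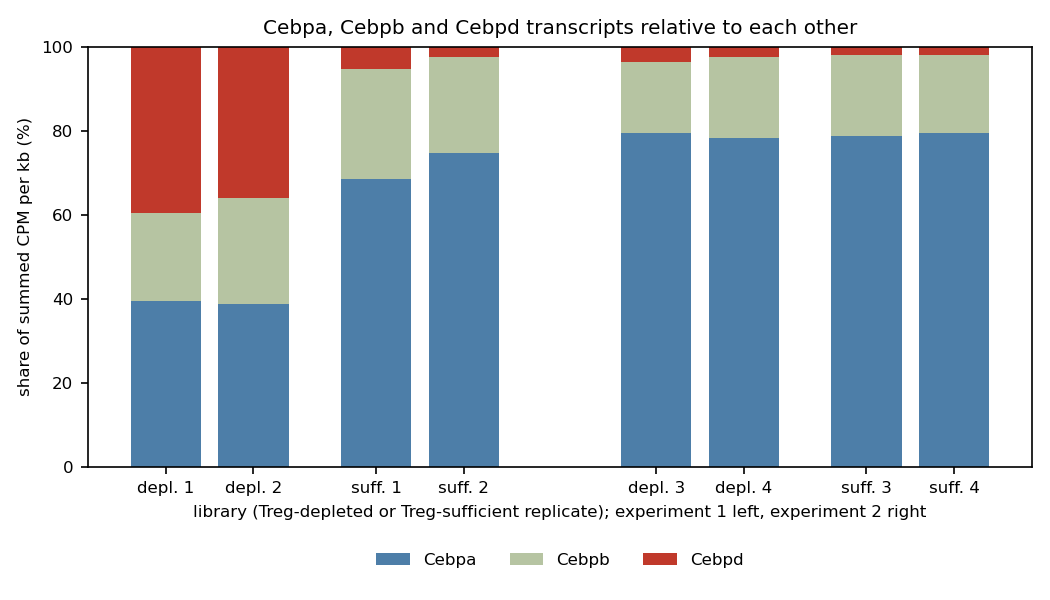
Share of Cebpa, Cebpb and Cebpd in their summed CPM per kb of exon (vertical axis, %) in each of the 8 libraries, Treg-depleted left of Treg-sufficient within each experiment. Cebpd holds 39.5 and 36.0% in Treg-depleted replicates 1 and 2 and at most 5.38% in the other 6 libraries.

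Serpina3n, which encodes a secreted inhibitor of serine proteases and is a classical acute-phase gene of the mouse, had the highest fold change of all 16495 genes tested in experiment 1. The gene (ENSMUSG00000021091, chromosome 12, 104406729 to 104414329, plus strand) stood at 950 and 247 CPM in Treg-depleted replicates 1 and 2, against 5.05 and 15.1 CPM in Treg-sufficient replicates 1 and 2. The Treg-depleted mean was 598 ± 497 CPM and the Treg-sufficient mean 10.1 ± 7.13 CPM (SD, n = 2 each), with a log2 fold change of 5.89 (SE 0.76), or 59.2-fold. Its level per exon length ranked 58th and 357th of 16424 genes in these Treg-depleted libraries, against 10528th and 6812th in the Treg-sufficient ones. In experiment 2 it stood at 8.02 and 7.77 CPM in Treg-depleted against 1.94 and 1.75 CPM in the Treg-sufficient pair (log2 fold change 2.09, SE 0.73), or 4.27-fold. Each Treg-depleted library thus exceeded both Treg-sufficient libraries of its own experiment, but the Treg-depleted pair of experiment 2 lay inside the range of the Treg-sufficient pair of experiment 1. The log2 fold change in experiment 1 was 4.59 without Treg-depleted replicate 1, 6.52 without Treg-depleted replicate 2, 6.85 without Treg-sufficient replicate 2 and 7.51 without both libraries with raised Xist.

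Serpina3i, a neighbouring gene of the same family (ENSMUSG00000079014, chromosome 12, 104263122 to 104269372, plus strand), stood at 87.3 and 40.2 CPM in Treg-depleted against 12.3 and 19.7 CPM in the Treg-sufficient pair of experiment 1 (log2 fold change 2.00, SE 0.38). In experiment 2 it stood at 8.37 and 7.13 CPM in Treg-depleted and 5.68 and 7.22 CPM in the Treg-sufficient pair (log2 fold change 0.26, SE 0.39). The pairs were apart in experiment 1 and overlapped in experiment 2, and without Treg-depleted replicate 1 the value in experiment 1 was 1.31, and without both libraries with raised Xist it was 2.79. Of the distinct stretches of 50 bases in the longest annotated transcript, 6.90% of Serpina3n and 15.4% of Serpina3i also occur in transcripts of other genes, with Serpina3 relatives sharing the most. Reads from such stretches can be lost or assigned to a relative, so the split between these genes is uncertain.

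The Serpina3 cluster of chromosome 12 was read along its length, with the split of reads between its genes uncertain. Serpina3k, which lies before Serpina3n on the chromosome, had 285 and 56 counts in Treg-depleted replicates 1 and 2 and 0 to 2 counts in each of the other 6 libraries. Serpina3m had 77 and 32 counts in those libraries and 0 in each of the other 6. The annotated spans of these neighbours overlap on the same strand, so reads shared by them may be missing from both, and neither passed the filter on low counts. Of their distinct stretches of 50 bases, 14% in Serpina3k and 19.1% in Serpina3m also occur in transcripts of other genes. Serpina3n is among the genes that share most with Serpina3m. The share was 16% for Serpina3g and 24.4% for Serpina3h. Whether reads of relatives entered these counts was not tested. Serpina3h, annotated as a transcribed pseudogene, stood at 282 and 107 CPM in Treg-depleted against 34.5 and 64.5 CPM in Treg-sufficient libraries of experiment 1. Serpina3g stood at 138 and 57.5 CPM in Treg-depleted against 13.3 and 16.2 CPM in Treg-sufficient libraries. The neighbouring Serpina3f stood at 18.1 and 4.2 CPM in Treg-depleted against 0.908 and 1.47 CPM in Treg-sufficient libraries. All 5 tested members of the cluster other than Serpina3n and Serpina3i had positive values in both experiments, with a median log2 fold change of 1.97 in experiment 1 and 1.76 in experiment 2, where the medians of all genes were 0.015 and 0.001. In experiment 2 the more abundant Serpina3h and Serpina3g had 0.46 (SE 0.46) and 0.86 (SE 0.64), and the higher values came from genes of few counts: Serpina3j had 3 and 76 counts in Treg-depleted and 0 and 1 in Treg-sufficient libraries. Serpina3b had 34 and 27 counts in Treg-depleted and 0 and 13 in Treg-sufficient libraries, and Serpina3f had 44 and 27 counts in Treg-depleted and 10 and 12 in Treg-sufficient libraries. By edgeR 0 of the 5 passed an adjusted p of 0.05 in either experiment. In every cluster gene tested except Serpina3b and Serpina3j, Treg-depleted replicate 1 was the highest library.

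**Figure D2:**
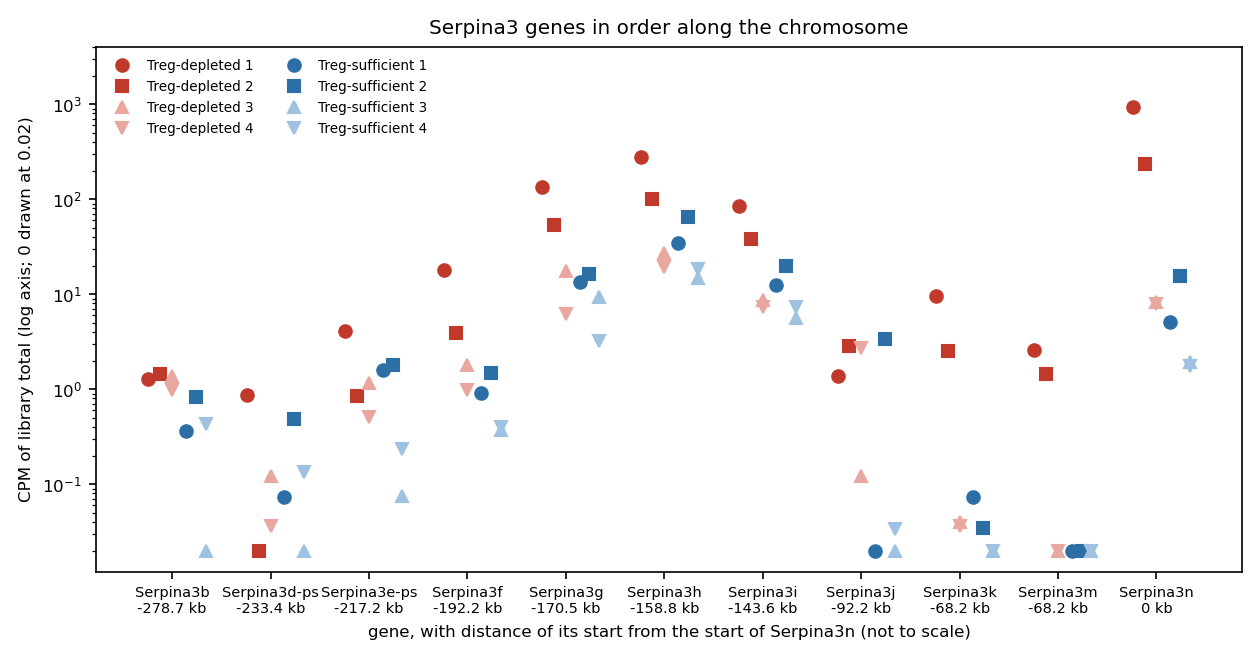
CPM of the library total (log axis, 0 drawn at 0.02) for the Serpina3 genes with at least 50 counts over all libraries, in chromosomal order with the distance of each start from that of Serpina3n. Each symbol is 1 library, Treg-depleted in red and left of Treg-sufficient in blue, with experiment 2 in paler colours; Serpina3k and Serpina3m stand clear of 0 to 2 counts only in Treg-depleted replicates 1 and 2.

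Promoter windows from RefSeq (GRCm38.p6, 250 bases before to 50 after the gene start) were available for 6 of the 8 genes, all but Cebpd and Clu. The windows of Serpina3n and Serpina3i are shown because they belong to family members on the same chromosome whose fold changes differ, and those of Lcn2 and Steap4 because they hold the C/EBP-type letters. Motifs were searched on both strands: TTGCNNAA, the C/EBP core, and TTCNNNGAA, the core bound by STAT factors. Capitals mark a match, and all sequences run 5′ to 3′ on the strand of the gene.
Serpina3n promoter (chr12:104406458-104406757, plus strand): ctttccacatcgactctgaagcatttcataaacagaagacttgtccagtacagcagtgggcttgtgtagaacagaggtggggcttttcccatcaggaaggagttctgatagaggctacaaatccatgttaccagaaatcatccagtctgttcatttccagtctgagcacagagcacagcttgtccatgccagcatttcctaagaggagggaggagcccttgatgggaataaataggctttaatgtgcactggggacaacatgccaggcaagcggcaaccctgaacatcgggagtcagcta
Serpina3i promoter (chr12:104262872-104263171, plus strand): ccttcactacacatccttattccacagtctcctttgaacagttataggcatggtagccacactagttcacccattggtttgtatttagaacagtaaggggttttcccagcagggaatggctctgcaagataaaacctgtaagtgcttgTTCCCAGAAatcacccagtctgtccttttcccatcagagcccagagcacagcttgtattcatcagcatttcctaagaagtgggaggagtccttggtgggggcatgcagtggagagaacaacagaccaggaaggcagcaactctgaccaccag
Lcn2 promoter (chr2:32387690-32387989, minus strand): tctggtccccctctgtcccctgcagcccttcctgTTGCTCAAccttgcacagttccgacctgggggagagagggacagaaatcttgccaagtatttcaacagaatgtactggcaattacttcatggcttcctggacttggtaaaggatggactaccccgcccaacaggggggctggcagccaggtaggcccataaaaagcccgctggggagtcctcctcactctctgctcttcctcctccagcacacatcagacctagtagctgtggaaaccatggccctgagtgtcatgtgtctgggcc
Steap4 promoter (chr5:7960222-7960521, plus strand): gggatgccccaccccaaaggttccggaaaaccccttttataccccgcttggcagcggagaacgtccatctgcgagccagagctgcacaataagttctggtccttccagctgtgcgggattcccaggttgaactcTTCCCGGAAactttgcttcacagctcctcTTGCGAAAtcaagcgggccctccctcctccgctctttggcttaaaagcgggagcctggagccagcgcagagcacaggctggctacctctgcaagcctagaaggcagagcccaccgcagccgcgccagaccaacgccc
TTGCNNAA occurred in 2 of the 6 windows, as TTGCTCAA at position -216 of Lcn2 and TTGCGAAA at position -87 of Steap4, against 10.8% of 27025 RefSeq promoters. TTCNNNGAA occurred in 2 of 6, as TTCCCAGAA at -102 in Serpina3i and TTCCCGGAA at -116 in Steap4, against 8.47% of promoters. Positions count from the gene start to the first base of the match. Serpina3n, with the highest fold change, held neither, and neither did Cebpa or Cebpb. The Serpina3n and Serpina3i windows were identical at 198 of their aligned bases (71.0%). The start RefSeq gives for Lcn2 lies inside the span GENCODE gives for the gene. Such matches describe letters in this window and say nothing of binding.

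Clu, which encodes clusterin, a secreted chaperone (ENSMUSG00000022037, chromosome 14, 65968483 to 65981547, plus strand), stood at 159 and 113 CPM in Treg-depleted against 22.6 and 35.8 CPM in Treg-sufficient libraries of experiment 1. The log2 fold change was 2.22 (SE 0.30), or 4.66-fold, and 2.78 without both libraries with raised Xist. In experiment 2 Clu stood at 29.4 and 43.9 CPM in Treg-depleted and 29.7 and 33.8 CPM in the Treg-sufficient pair (log2 fold change 0.21, SE 0.28). The 2 high libraries were the same as for Cebpd, and the remaining 6 lay between 22.6 and 43.9 CPM.

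Lcn2 and Steap4 did not follow the other acute-phase genes closely. Lcn2 encodes lipocalin-2, which withholds iron from bacteria by binding their siderophores (ENSMUSG00000026822, chromosome 2, 32384633 to 32388252, minus strand). It stood at 6.77 and 24.9 CPM in Treg-depleted against 2.62 and 2.63 CPM in the Treg-sufficient pair of experiment 1 (log2 fold change 2.59, SE 0.59). In experiment 2 the order was the opposite, with 0.620 and 0.603 CPM in Treg-depleted against 1.98 and 1.19 CPM in the Treg-sufficient pair (log2 fold change -1.37, SE 0.64), from 16 and 17 counts in Treg-depleted and 52 and 36 counts in Treg-sufficient libraries. Lcn2 was highest in Treg-depleted replicate 2, whereas Serpina3n, Serpina3i, Clu and Steap4 were highest in Treg-depleted replicate 1. Without Treg-depleted replicate 2, or without both libraries with raised Xist, the log2 fold change in experiment 1 was 1.33, and without Treg-depleted replicate 1 it was 3.22. Neutrophils carry abundant lipocalin-2. Their defining markers Ly6g, Ngp and Retnlg had 0 counts in all 8 libraries, Ltf had 0 as well, and 4 of 10 neutrophil markers passed the filter. Summed neutrophil markers ranged from 3.54 to 10.2 CPM in Treg-depleted and from 3.74 to 5.22 CPM in Treg-sufficient libraries, and the highest sum fell in Treg-depleted replicate 2, with 94 counts of S100a8 and 107 of S100a9, genes that keratinocytes also express. The other neutrophil markers that passed were at their lowest in that library, Csf3r with 0 counts (4 to 42 in the other 7 libraries) and Cxcr2 with 26 counts (58 to 98 in the other 7). The part of these genes in the Lcn2 value was not tested.

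Steap4 encodes a metalloreductase of the STEAP family that reduces iron and copper (ENSMUSG00000012428, chromosome 5, 7960457 to 7982213, plus strand). It stood at 602 and 243 CPM in Treg-depleted and 194 and 293 CPM in the Treg-sufficient pair of experiment 1 (log2 fold change 0.80, SE 0.39), and the value was -0.02 without Treg-depleted replicate 1 and 1.59 without both libraries with raised Xist. In experiment 2 it stood at 253 and 283 CPM in Treg-depleted and 205 and 249 CPM in the Treg-sufficient pair (log2 fold change 0.24, SE 0.39). The pairs overlapped in experiment 1, and a single library stood out. Steap4 had a high level in every library: per exon length it ranked 175th to 614th of 16424 genes in Treg-depleted libraries and no higher than 376th in Treg-sufficient ones. In the 4 Treg-sufficient libraries the level per kb averaged 74.6 ± 14.4 CPM for Steap4, 34.9 ± 6.49 for Cebpa, 9.87 ± 0.530 for Cebpb, 8.86 ± 1.70 for Clu, 5.04 ± 2.84 for Serpina3i, 2.89 ± 3.05 for Serpina3n, 1.27 ± 0.612 for Cebpd and 0.803 ± 0.259 for Lcn2 (SD, n = 4). In this order Cebpb and Clu, Serpina3i and Serpina3n, Serpina3n and Cebpd, and Cebpd and Lcn2 are pairs of neighbours whose means lay within their spread. In Treg-sufficient replicates 1 to 4 Serpina3i lay above Serpina3n, at 5.52, 8.85, 2.55 and 3.25 against 2.45, 7.33, 0.942 and 0.85 CPM per kb. The other pairs changed order between libraries.

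**Figure D3:**
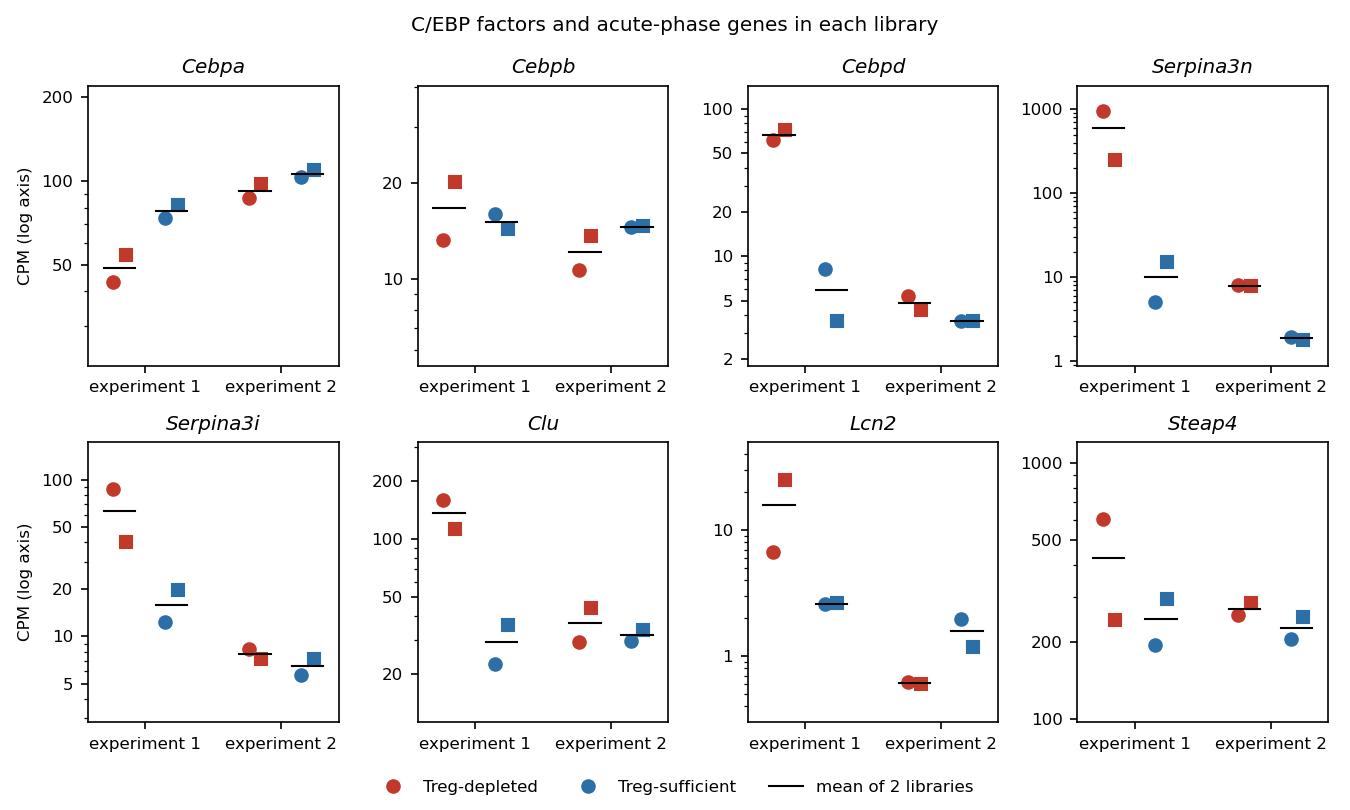
CPM (log axis) of the 8 genes in each library, with Treg-depleted in red and left of Treg-sufficient in blue within each experiment. Circles are replicates 1 and 3, squares replicates 2 and 4, and lines the mean of 2 libraries; in experiment 1 Cebpd, Serpina3n, Serpina3i, Clu and Lcn2 lie above, and Cebpa below, both Treg-sufficient libraries.

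Set side by side, the comparison within experiment 1 placed 5 of the 8 genes above both Treg-sufficient libraries in both Treg-depleted libraries (18.6% of all genes did so) and 1 below both (19% of all genes). In the edgeR fit of all genes 3 of the 8, Cebpd, Serpina3n and Clu, had an adjusted p under 0.05 in experiment 1, where 0.606% of genes did (37 higher, 0.224%, and 63 lower, 0.382%). With a library left out, edgeR called Cebpd in 8 of 8 cases, Serpina3n in 2 (without Treg-depleted replicate 1 or 2) and Clu in 1 (without Treg-depleted replicate 2). limma-voom called the same 3 genes as the full edgeR fit, with 82 called of the 16495 tested. DESeq2 called 6, adding Cebpa, Serpina3i and Lcn2, with 721 called of the 16495. Since the 8 genes were chosen from this contrast, the counts of them describe the choice. In experiment 2 the Treg-depleted pair lay above the Treg-sufficient pair for Cebpd, Serpina3n and Steap4 (16.7% of all genes) and below it for Cebpa, Cebpb and Lcn2 (15.9%). By edgeR 0 of 16495 genes (0%) were called in experiment 2, and 288 had an unadjusted p under 0.05. DESeq2 called 1 and limma-voom 0. Over both experiments, with the experiment number in the model, the log2 fold change was 4.28 (SE 0.94) for Serpina3n, 2.03 (SE 0.63) for Cebpd, 1.22 (SE 0.41) for Clu, 1.16 (SE 0.41) for Serpina3i, 0.82 (SE 0.88) for Lcn2, 0.52 (SE 0.28) for Steap4, -0.06 (SE 0.18) for Cebpb and -0.44 (SE 0.13) for Cebpa. No gene was called there by edgeR (0 of 16495, 0%), 1175 had an unadjusted p under 0.05, and limma-voom called 0. DESeq2 called 84, of the 8 genes only Serpina3n. The value of Serpina3n was 3.35 without Treg-depleted replicate 1 and 3.42 without Treg-sufficient replicate 1. That of Cebpd was 1.38 without Treg-sufficient replicate 2 and 1.26 without both libraries with raised Xist. Without the experiment number in the model these values were 5.66 for Serpina3n and 2.90 for Cebpd, and by limma-voom 5.22 and 2.75. For none of the 8 genes did all 4 Treg-depleted libraries lie beyond all 4 Treg-sufficient ones, which 1.27% of genes did on the higher and 1.05% on the lower side. For Lcn2 the value over both experiments lay between -0.07 (without Treg-depleted replicate 2) and 1.45 (without Treg-depleted replicate 4) with a library left out, and it was -0.39 without both libraries with raised Xist.

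**Figure D4:**
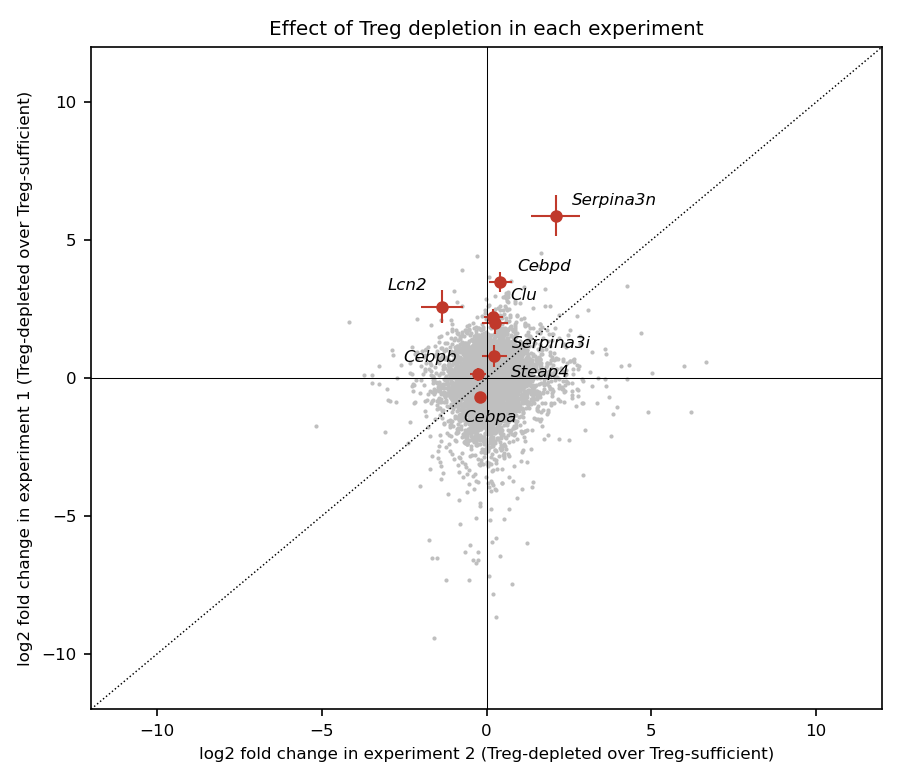
Log2 fold change of Treg-depleted over Treg-sufficient libraries in experiment 1 (vertical) and experiment 2 (horizontal) for all 16495 genes tested (grey) and the 8 genes (red, bars are SE). The dotted line marks equal values; Serpina3n lies at 5.89 in experiment 1 and 2.09 in experiment 2, and Cebpd, Clu and Serpina3i lie far above the line near 0 on the horizontal axis.

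The difference between the condition effects, experiment 2 minus experiment 1, was -3.96 (SE 0.87) on the log2 scale for Lcn2, -3.79 (SE 0.99) for Serpina3n, -3.07 (SE 0.49) for Cebpd, -2.01 (SE 0.40) for Clu and -1.73 (SE 0.54) for Serpina3i. It was 0.47 (SE 0.22) for Cebpa, -0.40 (SE 0.35) for Cebpb and -0.56 (SE 0.55) for Steap4. In this test of the interaction edgeR called 0 of 16495 genes (0%), with 923 at an unadjusted p under 0.05, and limma-voom called 0. DESeq2 called 182, among them 4 of the 8 genes, Cebpd, Serpina3n, Clu and Lcn2. Without both libraries with raised Xist the difference was -5.42 for Serpina3n, -2.69 for Lcn2, -2.57 for Clu, -2.53 for Serpina3i, -2.44 for Cebpd, -1.35 for Steap4 and 0.06 for Cebpb. Leaving out Treg-depleted replicate 1 gave -2.50 for Serpina3n, -1.05 for Serpina3i, -4.59 for Lcn2 and 0.26 for Steap4. Leaving out Treg-depleted replicate 2 gave -4.43 for Serpina3n and -2.70 for Lcn2. Without Treg-sufficient replicate 1 Cebpd had -3.77, and without Treg-sufficient replicate 2 Serpina3n had -4.76. Between experiments, adjusted for condition, log2 levels in experiment 2 minus those in experiment 1 were -4.61 (SE 0.95) for Serpina3n, -2.64 (SE 0.88) for Lcn2, -2.30 (SE 0.63) for Cebpd, -2.19 (SE 0.41) for Serpina3i and 0.69 (SE 0.13) for Cebpa. With a library left out the value ran from -5.24 to -3.70 for Serpina3n and from -3.30 to -1.87 for Lcn2. By edgeR 2 of the 8 genes, Cebpa and Serpina3i, had an adjusted p under 0.05, against 1.62% of all genes (0.903% higher and 0.721% lower in experiment 2). With a library left out both were called in 1 of 8 cases, without Treg-sufficient replicate 1, and neither was called without both libraries with raised Xist. Under upper-quartile factors Serpina3i alone of the 8 was called, with 216 called of 16495 genes. limma-voom called 4 of the 8 and 296 of all genes, and DESeq2 called 5 of the 8 and 2167 of all genes. The high Treg-depleted libraries of experiment 1 enter this difference too, so it is not independent of the choice of genes. Among Treg-sufficient libraries alone, Serpina3n stood at 1.94 and 1.75 CPM in experiment 2 against 5.05 and 15.1 CPM in experiment 1, and Cebpa stood at 103 and 110 CPM in experiment 2 against 73.5 and 82.1 CPM in experiment 1.

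Other genes of the pathways were read from 8 lists in the same fits. The lists were chosen with earlier results of these data known, so calls and adjusted p-values of listed genes are descriptions and no independent tests. In experiment 1 edgeR called 4 listed genes at an adjusted p of 0.05 over all genes tested, all of them higher in Treg-depleted libraries. Of all genes tested 0.606% were called there, 0.224% higher and 0.382% lower. Tsc22d3, a glucocorticoid-induced regulator of transcription, rose to 269 and 170 CPM in Treg-depleted libraries, against 33.0 and 22.6 CPM in Treg-sufficient ones (log2 fold change 2.98, SE 0.30, adjusted p = 0.0144). Klf9, a further glucocorticoid target, stood at 151 and 81.7 CPM in Treg-depleted against 27.1 and 28.9 CPM in Treg-sufficient libraries (2.05, SE 0.31, adjusted p = 0.0386). Bcl3, an atypical NF-κB inhibitor family member that STAT3 and NF-κB induce, stood at 23.9 and 21.8 CPM in Treg-depleted against 5.70 and 6.25 CPM in Treg-sufficient libraries (1.93, SE 0.26, adjusted p = 0.0284). Zc3h12a, which encodes the RNA-degrading enzyme Regnase-1, a brake on interleukin-17 signalling, stood at 31.2 and 36.6 CPM in Treg-depleted against 13.5 and 13.6 CPM in Treg-sufficient libraries (1.33, SE 0.20, adjusted p = 0.0386). Over 14 alternatives the adjusted p reached 0.0592 for Tsc22d3, 0.24 for Klf9, 0.198 for Bcl3 and 0.24 for Zc3h12a, and kept under 0.05 in 13, 7, 6 and 6 of them in that order of genes. With a library left out, Tsc22d3 was called in 7 of 8 cases, all but that without Treg-sufficient replicate 2, and Klf9, Bcl3 and Zc3h12a in 1 each, without Treg-depleted replicate 2.

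In the glucocorticoid list 2 of 7 tested genes rose, 6 of 7 values were positive, and the median log2 fold change was 1.37. The negative value was that of Fkbp5 (-0.19, SE 0.30), at 35.4 and 46.6 CPM in Treg-depleted against 50.1 and 43.4 CPM in Treg-sufficient libraries. Per1 (1.90, SE 0.36, adjusted p = 0.066) and Sgk1 (1.37, SE 0.28, adjusted p = 0.0858) were short of the threshold, and the receptor gene Nr3c1 had 0.21 (SE 0.19). In the list of IL-6, gp130 and STAT3 genes 1 of 17 rose, 13 of 17 were positive (12 under DESeq2 size factors or upper-quartile factors), and the median was 0.44. Stat3 itself stood at 527 and 412 CPM in Treg-depleted against 240 and 290 CPM in the Treg-sufficient pair of experiment 1 (0.82, SE 0.19, adjusted p = 0.12). Its feedback inhibitor Socs3 stood at 263 and 356 CPM in Treg-depleted against 154 and 50 CPM in Treg-sufficient libraries (1.60, SE 0.44, adjusted p = 0.184). Il6 was barely detected, with 0.621 CPM in its highest library, while Jak1 (0.10, SE 0.13) and the receptor gene Il11ra1 (0.60, SE 0.19) were among the highest of the list. In the list of IL-17, IL-1 and NF-κB genes 1 of 11 rose, 11 of 11 were positive (10 under upper-quartile factors), and the median was 0.37. Nfkbiz, a co-activator that works with C/EBP factors on Lcn2, stood at 118 and 148 CPM in Treg-depleted against 55.7 and 31.7 CPM in Treg-sufficient libraries (1.60, SE 0.27, adjusted p = 0.0516), and Nfkbia had 1.05 (SE 0.29), Nfkb1 0.37 (SE 0.15) and Rela 0.19 (SE 0.12).

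Liver-type acute-phase genes were mostly absent. Of 28 other acute-phase genes 12 were tested, 7 with positive values in experiment 1, a median of 0.75 and 0 calls in either direction. Saa1, Saa2, Orm2, Fga, Fgb and Apcs had 0 counts in all 8 libraries, as did Alb, the hepatocyte gene for albumin. Serping1, the C1 inhibitor gene, stood at 44.7 and 21.9 CPM in Treg-depleted against 4.58 and 13.5 CPM in the Treg-sufficient pair of experiment 1 (1.88, SE 0.51, adjusted p = 0.177). Timp1, an inhibitor of matrix proteases, stood at 1.82 and 13.2 CPM in Treg-depleted against 1.96 and 1.88 CPM in Treg-sufficient libraries, high in Treg-depleted replicate 2 alone. The others of highest level were Il1rn (-0.52, SE 0.52) and Cp (-0.05, SE 0.33). In the STEAP and iron list 0 of 10 passed and the median was -0.05, with Fth1 at 407 and 407 CPM in Treg-depleted against 267 and 227 CPM in the Treg-sufficient pair (0.72, SE 0.16, adjusted p = 0.108), Tfrc at 0.70 (SE 0.27), Ftl1 at -0.06 (SE 0.18) and Slc22a17, the gene of a lipocalin-2 receptor, at -0.46 (SE 0.24). Keratinocyte differentiation genes, of which Krt1 and Krt10 are targets of C/EBP factors, had negative values in 4 of 4 in experiment 1 (median -1.52), with 0 calls, and in 1 of 4 in experiment 2 (median 0.84). Krt1 had -1.79 (SE 0.63), Krt10 -1.15 (SE 0.76), Ivl -1.25 (SE 0.41) and Lor -2.24 (SE 1.04) in experiment 1.

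In experiment 2 the list medians were 0.29 for glucocorticoid genes, 0.056 for IL-6, gp130 and STAT3 genes, 0.042 for IL-17, IL-1 and NF-κB genes and 0.93 for the other acute-phase genes, and 0 listed genes were called in any list. The 4 other acute-phase genes of highest level were split: Serping1 1.18 (SE 0.54), Cp 0.28 (SE 0.33), Il1rn -0.48 (SE 0.53) and Timp1 -1.04 (SE 0.83). Higher values came from genes near the floor, such as C3 (2.41, SE 1.35), at 0 and 0.166 CPM in Treg-sufficient libraries. Between experiments 6 listed genes were lower in experiment 2 by edgeR, as were 0.721% of all genes: Serping1 (-2.57, SE 0.38, adjusted p = 0.0439), Serpina3h (-2.35, SE 0.42, adjusted p = 0.0457), Zbtb16 (-1.13, SE 0.22, adjusted p = 0.0483), Il17rc (-0.93, SE 0.17, adjusted p = 0.0457), Lifr (-0.77, SE 0.15, adjusted p = 0.0483) and Il11ra1 (-0.76, SE 0.15, adjusted p = 0.0484). With a library left out, each was called in 1 of 8 cases, without Treg-sufficient replicate 1, and none without both libraries with raised Xist. The call of Zbtb16 was also lost under upper-quartile factors and by limma-voom.

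**Figure D5:**
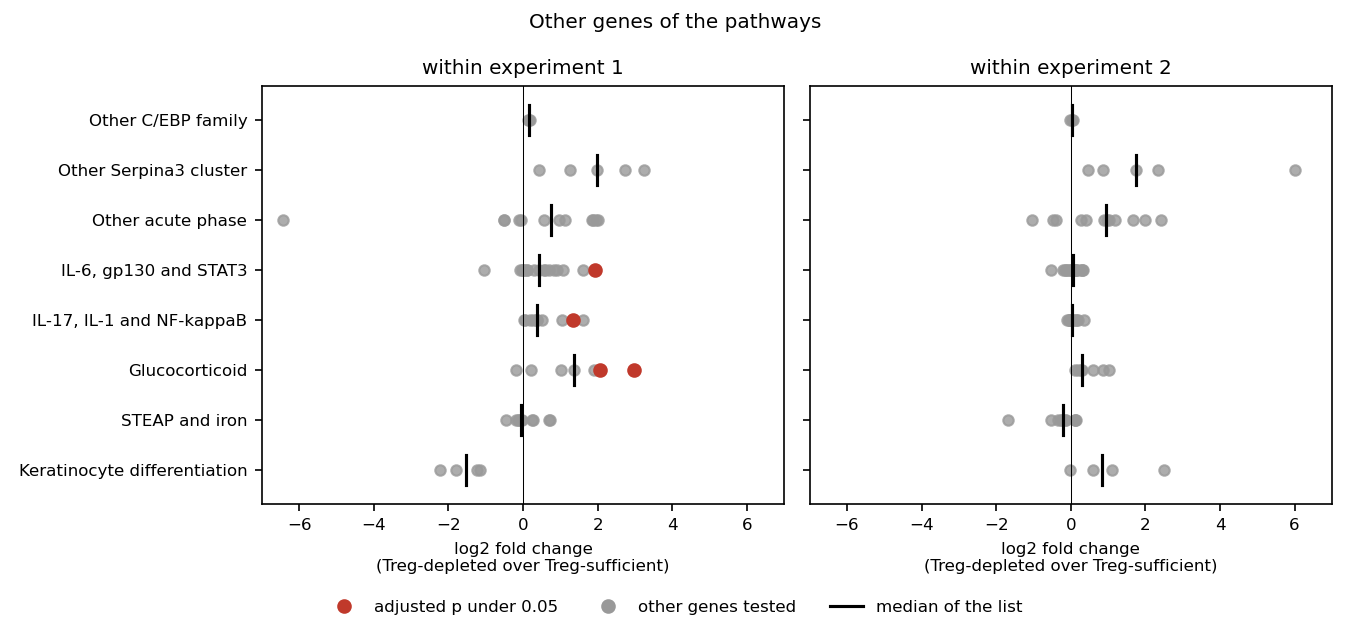
Log2 fold change (Treg-depleted over Treg-sufficient) of each tested gene of the 8 lists in experiment 1 (left) and experiment 2 (right), with the list median as a bar. Red points passed an adjusted p of 0.05: Tsc22d3, Klf9, Bcl3 and Zc3h12a in experiment 1 and none in experiment 2.

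Across the 8 libraries, the genes whose log2 CPM (0.5 added) most resembled Serpina3n were Bcl6, a transcriptional repressor, Fah, an enzyme of tyrosine breakdown, and Txnip, a regulator of redox state and glucose uptake. Their Pearson r was 0.991, 0.990 and 0.985, and 0.979, 0.888 and 0.888 without Treg-depleted replicates 1 and 2, the libraries farthest from the median. Txnip stood at 1669, 829, 246 and 254 CPM in Treg-depleted and 257, 441, 177 and 204 CPM in Treg-sufficient replicates 1 to 4. Most like Cebpd were the chemokine gene Ccl7 (0.985), the Wnt inhibitor gene Wif1 (0.985) and Gcc1 (0.981), with 0.710, 0.941 and 0.494 without the same 2 libraries. Among the 8 genes, r with Serpina3n was 0.962 for Serpina3i, 0.940 for Clu, 0.926 for Cebpd and -0.954 for Cebpa. Without those 2 libraries it was 0.730, 0.257, 0.172 and -0.647 in that order. The r of Lcn2 was 0.759 with all libraries and -0.024 without those 2, that of Steap4 0.749 and 0.609, and that of Cebpb 0.237 and -0.325. The likeness of Cebpd, Clu and Lcn2 to Serpina3n thus rests on Treg-depleted replicates 1 and 2. These values are descriptions over libraries that fall into 2 experiments.

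Markers of other cells also varied between libraries. Summed fibroblast markers (8 of 8 listed, 6 of them tested) were 18.9 and 19.9 CPM of the library total in Treg-depleted replicates 1 and 2, with a range of 18.9 to 70.3 CPM in Treg-depleted and 37.3 to 104 CPM in Treg-sufficient libraries. Pigment cell markers (5 of 5) summed to 19.2 to 167 CPM in Treg-depleted and 31.4 to 360 CPM in Treg-sufficient libraries, and sebaceous markers (6 of 6), of interest because sebocytes express Cebpa, to 219 to 367 CPM in Treg-depleted and 363 to 412 CPM in Treg-sufficient libraries. The sebaceous sum was 219 CPM in Treg-depleted replicate 1, which had the lowest Cebpa, and 367 CPM in Treg-depleted replicate 2, which had the second lowest. Endothelial markers summed to 1.75 to 4.08 CPM in Treg-depleted and 3.96 to 7.89 CPM in Treg-sufficient libraries, and macrophage and Langerhans markers to 2.28 to 5.56 CPM in Treg-depleted and 3.57 to 4.66 CPM in Treg-sufficient libraries. T cell markers summed to 0 to 1.34 CPM in Treg-depleted and 0.347 to 2.44 CPM in Treg-sufficient libraries. Regulatory T cell markers, mostly Ikzf2, summed to 6.64 to 36.9 CPM in Treg-depleted and 5.64 to 14.5 CPM in Treg-sufficient libraries. Of the 4 hepatocyte markers Alb had 0 counts in all 8 libraries, and Apoa2 had at most 7. Cps1 had 11 and 18 counts in Treg-depleted replicates 1 and 2 and 299 to 2215 in the other 6 libraries, and Ttr had 26 and 64 counts in those 2 libraries and 2 to 31 in the other 6. The part of these cells in the differences above was not tested.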

How the data were processed

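RNA from sorted Lgr5-traced cells was sequenced in 8 libraries. Per the labels' protocols, frozen cell pellets were extracted with an RNeasy kit and sequenced from TruSeq Stranded mRNA libraries. Per the submitters' processing notes, TopHat2 (version 2), SAMtools, HTSeq and DESeq2 were used with GRCm38.p4. Their order, the annotation used and whether counting was stranded are not stated in the labels. The authors deposited raw read counts per Ensembl gene, not normalized, with 5 further rows for reads outside the gene counts. These rows were left out of library sizes: reads aligned to several places made up 26.2 to 30.6% of all reads listed, reads in no gene 6.63 to 10.8% and ambiguous reads 2.72 to 3.01%. GENCODE M21 (GRCm38) paired 45143 of 46078 identifiers with symbols.

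Differences were fitted with edgeR 4.0.16 (R 4.3.3) from the counts: TMM factors, filterByExpr with a minimum count of 10 (16495 genes kept, among them all 8 genes reported on), and the quasi-likelihood F-test with Benjamini-Hochberg adjustment at 0.05. The condition comparison and the difference between experiments came from a model of condition and experiment (5 residual degrees of freedom). Effects within experiments and their difference came from 4 groups of 2 libraries (4 degrees), in which each pair is assumed to vary like the others. The SE is the log2 fold change divided by the square root of its F. The steps were tested on simulated counts with known changes in 200 genes of a mean count of at least 50. The simulated spread came from the fit of 4 groups, and a change between conditions was the same in both experiments. Where effects differ between experiments, as for several of the 8 genes, or counts are low, recovery may be less than simulated. Within experiment 1, within experiment 2 and for the difference of the effects, a log2 change of 1 was recovered in 26, 31 and 3%. A log2 change of 2 was recovered there in 81, 86 and 66%. Unchanged genes made up 5.31, 8.59 and 12.7% of calls there. Between conditions and between experiments a log2 change of 1 was recovered in 72 and 78%. A lack of calls thus does not show that changes of this size are absent. Among the 8 genes depth limits Lcn2 most, with 16 to 522 counts a library.

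The 8 genes and the lists were chosen with earlier results of these data known. A planned test of the 8 genes between experiments is given as a description instead, because the libraries that led to their choice enter it. Named from each list were genes past the threshold and the 4 of highest CPM, and for likeness the 3 genes of highest Pearson r with Serpina3n and with Cebpd. Genes named as undetected, and a few others such as C3 and Fkbp5, were chosen after their values were seen. Alternatives were DESeq2 1.42.0, limma-voom (limma 3.58.1), other scaling factors, no filter, no experiment term, a replicate block by the letter in the titles, and libraries left out.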

Additional observations from a re-analysis of the deposited data

Results flagged for a closer look

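Cebpb in Treg-sufficient replicate 1 (16.0 CPM) lay apart from the other 3 Treg-sufficient libraries (14.3 to 14.6 CPM), as did Cebpd in the same library (8.21 CPM against 3.61 to 3.65 CPM). Steap4 in Treg-depleted replicate 1 (602 CPM) lay apart from the other 3 Treg-depleted libraries (243 to 283 CPM). By chance about 1 group in 20 is marked in this way, and 16 groups of 4 were looked at.

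Lcn2 was lower in both Treg-depleted than in both Treg-sufficient libraries of experiment 2 and higher in both in experiment 1. The effects differed by -3.96 log2 units, experiment 2 minus experiment 1. edgeR did not call this difference at an adjusted p of 0.05, while DESeq2 and edgeR with no filter on low counts did. Lcn2 had been chosen with these values known, so none of these calls is an independent test.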

How the results depend on the processing

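How many genes were called depended on the setting. With no filter on low counts edgeR called 820 genes over both experiments, 1152 within experiment 1, 132 within experiment 2, 534 for the difference of the effects and 2443 between experiments, against 0, 100, 0, 0 and 268 with the filter. The fit without the filter tested every gene with a count in any library, at least the 23062 with counts in Treg-depleted replicate 4. The exact number, and so the share of all genes called, was not worked out. Of the 8 genes, edgeR without the filter called 6, 7, 1, 5 and 6 in that order of comparisons. They had been chosen with earlier results of these libraries known, so these calls are descriptions. DESeq2 called 84, 721, 1, 182 and 2167 in the same comparisons, and limma-voom 0, 82, 0, 0 and 296. Without both libraries with raised Xist edgeR called 487 in experiment 1, 87 for the difference between the effects and 2 between experiments. With a library left out, the lone library of a pair is assumed to vary like the other groups. The counts were then 0 between conditions in all 8 cases, 16 to 443 in experiment 1, 0 in experiment 2, 0 to 9 for the difference between the effects (9 without Treg-sufficient replicate 1) and 0 to 679 between experiments (679 without Treg-sufficient replicate 1, 0 to 39 without any other library). In experiment 1 the count was 443 without Treg-depleted replicate 2, 58 without Treg-depleted replicate 1, 16 without either Treg-depleted replicate 3 or 4, and 34, 23, 24 and 23 without Treg-sufficient replicates 1 to 4. The cause was not tested.

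Titles share a letter across conditions. Libraries of the same letter did not deviate together (r = -0.084 in experiment 1 and -0.110 in experiment 2), so the letter was not used as a pairing. Each r rests on 2 libraries per condition and experiment and cannot exclude a pairing. Both libraries with raised Xist share the letter B. With the replicate block by letter 0 genes were called between conditions, and 0 with the letters of experiment 2 crossed, a choice made after the data were seen.

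Cebpa, Cebpd, Serpina3n, Serpina3i, Clu and Lcn2 kept the sign of their log2 fold change in experiment 1 under all 14 alternatives. Lcn2 ranged from 1.33 to 3.22 there. Cebpb kept its sign in 12 of them and Steap4 in 13. In experiment 2 Serpina3n ranged from 2.02 to 2.17 and Clu from -0.11 to 0.47. Each effect within an experiment rests on 2 libraries a group. Lcn2 in experiment 2 rests on 16 to 52 counts a library.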
